A study of Mus musculus with 72 samples.

Results

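Elastic fibre and fibulin genes were followed in muscle and brain RNA of stimulated and unstimulated mice. The set was a fixed list of 10 gene symbols, Eln, Fbn1, Fbn2, Fbln1, Fbln2, Fbln5, Efemp1, Efemp2, Lox and Postn, and its members were the table rows that carry these symbols. The brain table, with 15431 genes, held all 10 of them. The muscle table, with 13543 genes, held 9, and Fbn2 in muscle was not analysed here. All 9 and all 10 passed the filter on low counts, which kept 13505 muscle and 15400 brain genes. The list was drawn up with earlier results of these data known. Its genes were chosen by family and with the muscle log2 differences of matrix genes after stimulation in view, among them those of Fbn1 and Postn.

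Mice were wild type (WT) or Klotho heterozygous (KlHET, labelled KLOTHO HET), and the study states an age of 2 months. KlHET mice carried 1 copy of the Kl tm1Lex allele on a mixed B6;129S5 background, and all mice were bred in house. In neuromuscular electrical stimulation (NMES), a current of 9 mA makes the leg muscles contract under isoflurane, here in 2 sets of 10 stimulations per leg at each of 5 sessions. Control mice of both genotypes received isoflurane alone for 15 min per session day, so that every group was anaesthetised. Tissue was taken 24 h after the last session. Each tissue had 6 control and 6 NMES libraries of WT and 12 control and 12 NMES libraries of KlHET mice, each under its own animal identifier, and both tissues came from the same mice. The legends of the study count fewer KlHET control animals than the labels, and every labelled library was used. Muscle was the pooled tibialis anterior and extensor digitorum longus. Brain is labelled without a region, and the methods of the study name prefrontal cortex. WT and KlHET mice carried identifiers of separate series, and the labels do not say what the series stand for. Whatever goes with the series and the genotype itself cannot be told apart in any genotype comparison.

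Elastic fibres give stretch and recoil to arteries, lung, skin and the sheaths of muscle. They form on a scaffold of microfibrils built from fibrillins, onto which tropoelastin is laid down with the help of fibulins and then cross-linked by lysyl oxidase. In skeletal muscle this matrix lies between fibres and around vessels and is made largely by fibroblasts, while in brain it belongs mainly to vessel walls and the meninges. Eln encodes tropoelastin. Fbn1 and Fbn2 encode fibrillin-1 and fibrillin-2. Fbln1, Fbln2 and Fbln5 encode fibulins, of which fibulin-5 guides tropoelastin onto the microfibril. Efemp1 and Efemp2 encode fibulin-3 and fibulin-4, and fibulin-4 brings lysyl oxidase to elastin. Lox encodes lysyl oxidase itself. Postn encodes periostin, a matricellular protein that is induced by TGF-beta and takes part in collagen cross-linking, and it is not a component of the fibre core.

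Depth ran from 14.84 to 24.45 M reads in muscle and from 16.97 to 27.99 M in brain. Values are CPM, the reads of a gene per 1 M reads of its library. Counts of libraries above or below every library of another group use deposited CPM unless TMM scaling is named, and can change with that scaling. Differences between groups are log2 fold changes ± SE, and intervals are at 95%. Differences were tested on log2(CPM + 0.5) with limma, the Benjamini-Hochberg adjustment ran over all genes of the tissue, and a gene is called where the adjusted p is under 0.05. Kl, the disrupted gene, was low in brain and did not separate the genotypes. Its lowest, median and highest CPM were 1.31, 3.25 and 6.53 in WT controls and 1.93, 2.85 and 31.1 in KlHET controls (log2 difference 0.38 ± 0.51, limma adjusted p = 0.807). In NMES mice the difference was -0.04 ± 0.51 (limma adjusted p = 1.0). Kl is also a gene of the choroid plexus, and its highest values came with high sums of the choroid plexus markers, which include Kl, at 31.1 CPM beside 1977 CPM in KlHET control replicate 7, 19.3 beside 997 in KlHET NMES replicate 9 and 16.7 beside 854 in KlHET control replicate 9. No WT sum passed 144 CPM, and the part of choroid plexus in the Kl values was not tested. Kl in muscle was not analysed here, and a transcript level need not follow a targeted allele. Muscle fibre markers summed to between 76641 and 130332 CPM in muscle libraries, with mitochondrial genes at 6.39% to 33.6% of reads, and none of the fibroblast, tenocyte, smooth muscle, endothelial, macrophage, adipocyte or fibre markers was at 0 in all of them.

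Positions are those of the mouse genome mm10. Eln is at chr5:134702593-134747323 on the minus strand, Fbn1 at chr2:125300594-125507993 on the minus strand, Fbln1 at chr15:85205949-85286535, Fbln2 at chr6:91212455-91272540, Fbln5 at chr12:101746565-101819055 on the minus strand and Postn at chr3:54361109-54391037. The sources used here do not say whether counting used read strand. By GENCODE, 20.1% of the exon bases of Fbn1 lie opposite exons of Gm9913, and for Eln, Efemp2, Lox and Fbn2 the share opposite another gene was at most 4.57%, so reads of such genes cannot be told apart there. The exons of Fbln1, Fbln2, Fbln5, Efemp1 and Postn overlapped no other gene. Promoter sequences are shown for 3 genes with different outcomes in the muscle genotype comparisons, Fbln5 and Fbln1 (called in NMES mice) and Postn (called in neither), to set their start regions side by side. Each is the 250 bases before a RefSeq transcription start (GRCm38.p6), 5′ to 3′ on the gene's strand, in a window that held no exon of its gene. Capitals mark the TATA box TATAAA, the GC box GGGCGG and the CCAAT box on either strand, and no match overlapped another.
Postn, chr3:54360857-54361106, plus strand: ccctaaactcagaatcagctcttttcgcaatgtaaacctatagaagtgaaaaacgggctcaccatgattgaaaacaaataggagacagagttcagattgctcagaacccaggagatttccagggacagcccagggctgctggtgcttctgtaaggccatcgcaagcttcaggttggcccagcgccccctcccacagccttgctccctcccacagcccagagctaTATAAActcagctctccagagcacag
Fbln5, chr12:101819120-101819369, minus strand: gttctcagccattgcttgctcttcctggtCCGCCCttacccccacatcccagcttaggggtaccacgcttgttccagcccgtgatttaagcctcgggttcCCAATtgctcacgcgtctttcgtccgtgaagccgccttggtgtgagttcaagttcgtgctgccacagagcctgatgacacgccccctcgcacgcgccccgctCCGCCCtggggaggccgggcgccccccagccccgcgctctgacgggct
Fbln1, chr15:85205699-85205948, plus strand: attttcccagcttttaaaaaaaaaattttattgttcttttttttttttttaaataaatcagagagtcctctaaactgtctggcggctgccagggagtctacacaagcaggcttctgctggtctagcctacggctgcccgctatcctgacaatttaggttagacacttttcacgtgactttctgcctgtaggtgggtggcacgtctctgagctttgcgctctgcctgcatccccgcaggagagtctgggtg
The Postn window held 1 TATAAA, which ended 20 bases before the start, and its G and C content was 52%. TATAAA occurred in 12.4% of the 32851 windows of this length in the table. The Fbln5 window, with 65.2% G and C, held 2 copies of the GC box, both on the opposite strand, and 1 CCAAT. The GC box occurred in 32.7% of all windows and CCAAT in 33.8%. In the Fbln1 window none of the 3 was found. Fbln5, Fbln1 and Postn each have a second RefSeq start, whose window is not shown. The second Fbln1 window, chr15:85205758-85206007, overlaps the first and held 1 GC box, which ended 5 bases before its start. In the second windows of Fbln5 and Postn none of the 3 was found, so the motifs of each gene depend on the start chosen.

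Levels of different genes were compared per kb of exon (CPM divided by the length of all annotated exons of a gene, GENCODE vM21). In muscle of WT controls Fbln2 had the highest level, with a median of 10.9 CPM per kb (8.61 to 14.3). Fbln2 was followed by Postn (3.83), Eln (3.71), Efemp1 (2.74), Fbn1 (2.46) and Fbln5 (2.25), and the lowest 3 were Lox (1.16), Efemp2 (1.11) and Fbln1 (0.769 CPM per kb). The ranges of each pair of neighbours in this order overlapped, and that of Postn, 1.75 to 9.97, took in the medians of Eln, Efemp1, Fbn1 and Fbln5. Brain had another order. Efemp1 led with a median of 7.54 CPM per kb (4.03 to 9.08), above the whole range of Fbln1 (3.50, from 2.61 to 3.88). Efemp2 (2.57), Fbln2 (1.87), Eln (1.25) and Fbln5 (1.15) came next, each overlapping the range of its neighbour in this order. Fbn1 (0.465), Fbn2 (0.368), Postn (0.303) and Lox (0.235) lay below the whole range of Fbln5. Each tissue is scaled to its own total, so levels set across tissues are a description.

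**Figure D1:**
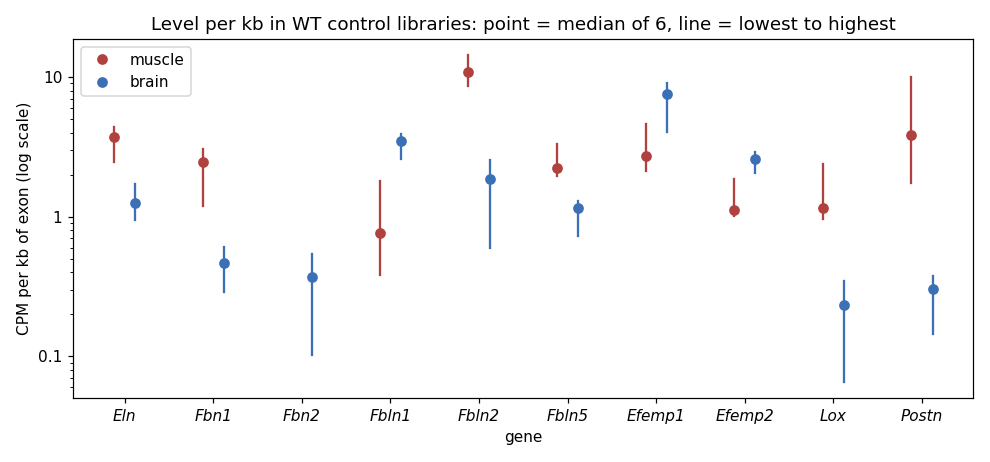
Level of each gene in the 6 WT control libraries of muscle (red) and brain (blue), as CPM per kb of exon on a log axis, where the point is the median and the line runs from the lowest to the highest library. Fbln2 leads in muscle at 10.9 CPM per kb and Efemp1 in brain at 7.54, and Postn in muscle has the longest line, from 1.75 to 9.97.

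In unstimulated muscle, the RNA for tropoelastin, fibrillin-1 and fibulin-2 was higher in KlHET than in WT mice. These 3 of 9 genes were called higher and 0 lower, beside 2.59% of all 13505 genes called higher, 3.41% called lower and 6% called in either direction. Eln was 1.73-fold higher, Fbn1 1.89-fold and Fbln2 1.37-fold. Of the 9 genes 8 had a log2 difference above 0, and their median was 0.38, against 0.02 for all genes. Because the genes were chosen with results of these data known, their calls are not independent support for the direction.

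Eln, the elastin precursor, measured 20.1 CPM in the lowest, 30.0 in the median and 35.7 in the highest WT control, and 29.8, 50.6 and 78.4 in the KlHET controls. Of the 12 KlHET controls 10 lay above every WT control, and the groups overlapped (log2 difference 0.79 ± 0.20, limma adjusted p = 0.0198). Fbn1, the main fibrillin after birth, measured 14.5, 29.9 and 36.8 CPM in WT controls and 27.3, 58.8 and 93.0 in KlHET controls. All but 1 of the KlHET controls exceeded the highest WT control (0.92 ± 0.26, limma adjusted p = 0.0311). Fbln2, a fibulin of basement membranes and microfibrils, measured 54.8, 69.7 and 91.4 CPM in WT controls and 78.4, 105 and 126 in KlHET controls, with 10 of 12 above every WT control (0.45 ± 0.13, limma adjusted p = 0.0375).

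These 3 calls were all lost when 1 library was left out, though the difference of Eln stayed at 0.79. WT control replicate 3 was the lowest of its group for Fbn1, Fbln1, Fbln2 and Efemp2, and without it 0 of the 9 genes were called. Its mitochondrial share was 18.6% of reads, against 26.0% to 33.3% in the other WT controls, and its TMM factor was 1.09, against 1.00 at most. The differences were then 0.79 for Eln, 0.70 for Fbn1 (limma adjusted p = 0.162) and 0.35 for Fbln2, and the calls over all genes fell from 350 higher and 460 lower to 28 and 93. Without WT control replicate 2, the lowest for Eln, only Fbn1 of the 9 was called. Fbln2 missed the threshold with edgeR's quasi-likelihood test (adjusted p = 0.0517).

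The other 6 genes were not called in controls. Fbln1 (0.71 ± 0.29, limma adjusted p = 0.122), Fbln5 (0.37 ± 0.14, adjusted p = 0.110) and Lox (0.38 ± 0.21, adjusted p = 0.267) had values above 0, as had Efemp1 (0.30 ± 0.23) and Efemp2 (0.25 ± 0.15). Fbln5 had a median of 15.5 CPM (13.6 to 23.1) in WT and of 24.1 CPM (17.2 to 32.0) in KlHET controls, with 7 of 12 KlHET libraries above every WT library in deposited CPM and 2 of 12 after TMM scaling. Postn alone had a value below 0 (-0.47 ± 0.35, limma adjusted p = 0.434), with an interval from -1.19 to 0.24.

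**Figure D2:**
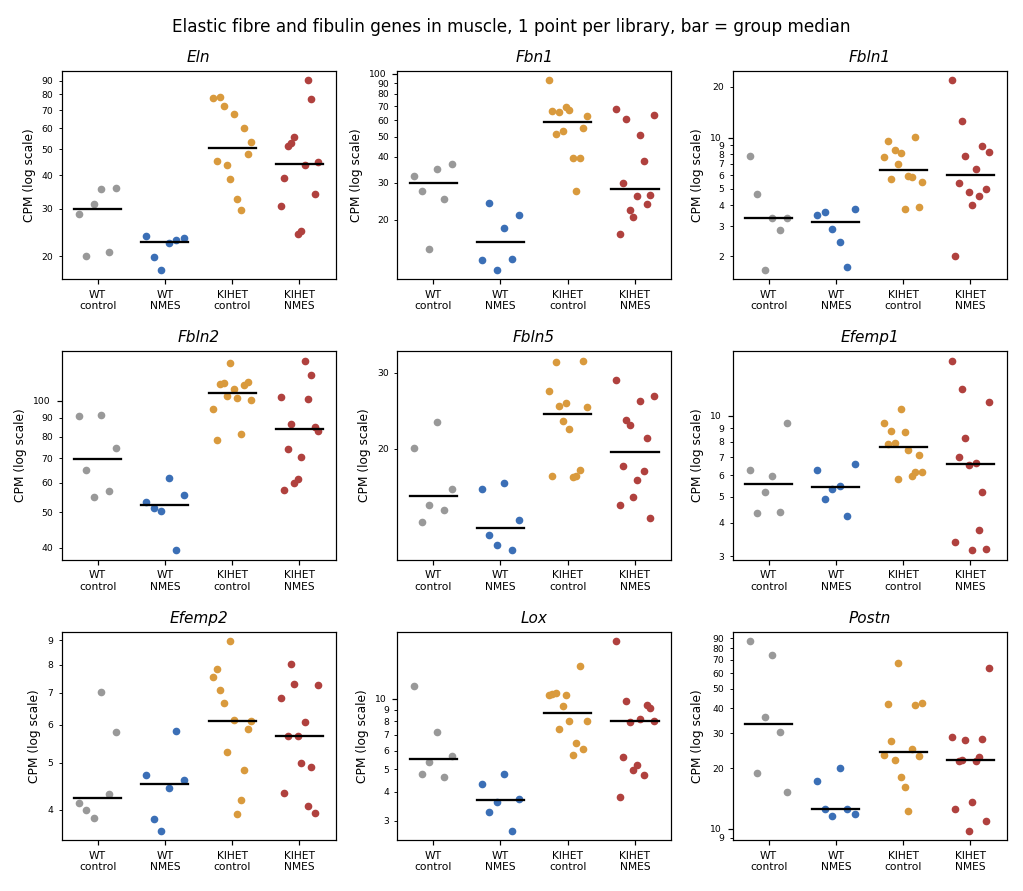
CPM of 9 genes in muscle on a log axis, 1 point per library (6 per WT group, 12 per KlHET group) with a bar at the group median. Eln and Fbln2 stand higher in both KlHET groups, with Eln medians of 50.6 and 44.2 CPM against 30.0 and 22.6, and Postn spreads from 15.2 to 86.7 CPM within the WT controls alone.

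In stimulated muscle, 6 of the 9 genes were higher in KlHET than in WT mice and 0 were lower, beside 9.26% of all genes called higher, 9.87% called lower and 19.1% called in either direction. Eln was 1.83-fold, Fbn1 1.85-fold, Fbln1 1.89-fold, Fbln2 1.46-fold, Fbln5 1.31-fold and Lox 1.71-fold higher. The 9 genes had a median log2 difference of 0.55, against 0.02 for all genes, and all 9 lay above 0. The WT NMES and KlHET NMES mice were other animals than the controls, so these are separate samples, but with identifiers of the same series per genotype.

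Eln measured 17.8, 22.6 and 23.8 CPM in WT NMES muscle and 24.1, 44.2 and 90.4 in KlHET NMES muscle. All 12 KlHET libraries lay above all 6 WT libraries (0.87 ± 0.20, limma adjusted p = 0.00385), and Eln was the only 1 of the 9 genes whose deposited CPM did not overlap, beside 1.08% of all genes not overlapping in this direction. After TMM scaling 11 of the 12 did so. The highest library, KlHET NMES replicate 9, had 6.39% mitochondrial reads, against 19.97% to 30.5% in the other 11, and the highest TMM factor (1.23). Without it the difference of Eln was 0.81, and 6 of the 9 genes were called by limma, Eln among them. Fbn1 measured 11.6, 15.7 and 24.1 CPM in WT and 17.0, 28.2 and 68.1 in KlHET NMES muscle, with 8 of 12 above every WT library (0.89 ± 0.26, limma adjusted p = 0.0156). Fbln2 measured 39.5, 52.2 and 61.7 CPM in WT and 57.5, 83.9 and 128 in KlHET, with 9 of 12 above (0.55 ± 0.13, limma adjusted p = 0.00480).

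Lox, which cross-links elastin and collagen, measured 2.72, 3.67 and 4.76 CPM in WT NMES muscle and 3.80, 8.02 and 17.7 in KlHET NMES muscle (0.77 ± 0.21, limma adjusted p = 0.00913). Of the KlHET libraries 10 of 12 lay above every WT library. Fbln1 measured 1.72, 3.20 and 3.78 CPM in WT and 2.00, 5.99 and 21.8 in KlHET NMES muscle, where 11 of 12 lay above (0.92 ± 0.29, limma adjusted p = 0.0227). It rested on 31 to 68 reads per library in the WT group, and it missed the threshold where only the compared groups were fitted (adjusted p = 0.0606).

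Fbln5 was the weakest of the 6 calls. It measured 11.7, 13.2 and 16.7 CPM in WT and 13.8, 19.7 and 28.8 in KlHET NMES muscle (0.39 ± 0.14, limma adjusted p = 0.0498), and with each library left out in turn it was called in 12 of 36 fits, with an adjusted p of 0.116 at most. Efemp2 (0.18 ± 0.15), Efemp1 (0.09 ± 0.23) and Postn (0.42 ± 0.35) were not called, with limma adjusted p = 0.425, 0.826 and 0.417. Their intervals were -0.13 to 0.49 for Efemp2, -0.38 to 0.55 for Efemp1 and -0.29 to 1.13 for Postn.

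**Figure D3:**
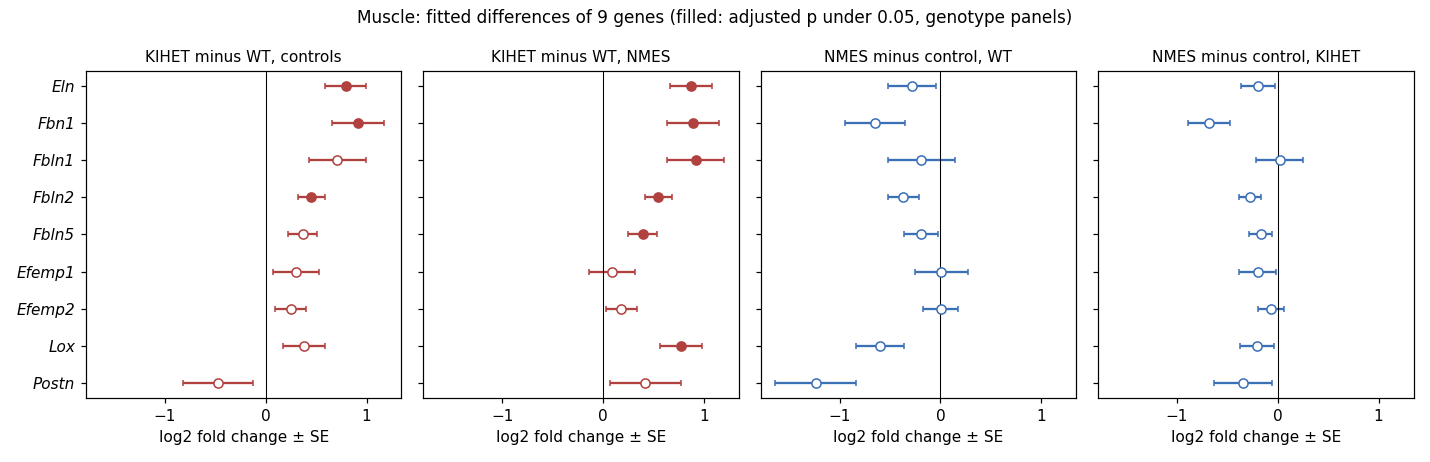
Fitted log2 differences of 9 genes in muscle with their SE, for KlHET minus WT in controls and in NMES mice (red) and for NMES minus control in WT and in KlHET mice (blue), where filled points mark an adjusted p under 0.05 in the genotype panels. The filled points are Eln, Fbn1 and Fbln2 in controls and 6 genes in NMES mice, and Postn runs from -1.24 in WT to 0.42 between the stimulated genotypes.

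Some cell type markers were called in the same comparisons, beside the 2.59% of all genes called higher in controls and 9.26% in NMES mice. In NMES mice 1 call in a list of 10 genes is near that share. In WT controls the 11 fibroblast markers summed to a median of 1739 CPM (1315 to 2289), in KlHET controls to 2126 CPM (1363 to 2814), in WT NMES muscle to 1233 CPM (938 to 1630) and in KlHET NMES muscle to 1668 CPM (925 to 3295). Of the 11, 0 were called between control genotypes (median log2 difference 0.18), and 2 of 11 were higher in KlHET NMES muscle (median 0.34), Col1a2 (0.97 ± 0.30, limma adjusted p = 0.0224), a chain of type I collagen, and Pi16 (0.83 ± 0.29, limma adjusted p = 0.0395), a marker of adventitial fibroblasts. Of the 10 smooth muscle and pericyte markers, which include the other makers of vessel elastin, Notch3 was higher in KlHET controls (0.53 ± 0.14, limma adjusted p = 0.0246) and Notch3 and Myh11 in KlHET NMES muscle (0.65 ± 0.14 and 0.68 ± 0.17). Of 10 endothelial markers Vwf was higher in both (0.69 ± 0.17 and 0.87 ± 0.17), and of 8 tenocyte markers Scx (0.65 ± 0.18) and Comp (1.25 ± 0.41) in KlHET NMES muscle. Of 9 macrophage markers Mrc1 (0.71 ± 0.24) and of 8 adipocyte markers Plin1 (1.37 ± 0.48) were higher in KlHET NMES muscle. Of 8 muscle fibre markers 0 were higher and 1 was lower in KlHET controls (list median -0.03). In KlHET NMES muscle 1 was higher and 2 were lower (list median 0.08). The share of all genes called lower was 3.41% in controls and 9.87% in NMES mice. The list medians between NMES genotypes were 0.66 for adipocyte, 0.54 for tenocyte, 0.46 for macrophage, 0.27 for endothelial and 0.24 for smooth muscle and pericyte markers. Between control genotypes they were 0.27, 0.25, 0.20, 0.22 and 0.04 in the same order, against 0.02 for all genes. Of the 10 smooth muscle and pericyte markers 3 lay below 0 in controls. The summed macrophage markers ran from 48.5 to 76.4 CPM in WT NMES and from 41.4 to 286 CPM in KlHET NMES muscle, and the summed adipocyte markers from 250.2 to 601 and from 231 to 620 CPM. The summed tenocyte markers ran from 112 to 288 CPM in WT controls and from 141 to 471 CPM in KlHET controls. In whole tissue, more cells of a type and more RNA per cell cannot be told apart, and the part of these markers in the differences of Eln, Fbn1 and the fibulins was not tested.

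After NMES, the muscle values of these genes lay mostly below those of controls. At the main settings limma called 0 of 9 in any of the stimulation comparisons. Over both genotypes limma called Fbn1 with a pseudocount of 0.1 and with the covariate for Xist or Y-linked genes. Some limma fits with a library left out also called genes of the 9. Over both genotypes DESeq2 called Fbn1, Fbln2 and Postn, and limma with total-count scaling called Fbn1 and Fbln2, all lower. The share of all genes called at the main settings was 1.78% over both genotypes, 0.0148% in WT and 0.644% in KlHET mice. The counts over all genes with DESeq2 and with total-count scaling are given in the last section. Matrix genes of this contrast were in view when the list was drawn up. The calls under other settings are therefore not independent support, and the values are a description. Over both genotypes the 9 log2 differences were all below 0, with a median of -0.24, against -0.01 for all genes. Postn (-0.79 ± 0.25) and Fbn1 (-0.66 ± 0.18) were lowest, then Lox (-0.40 ± 0.15), Fbln2 (-0.32 ± 0.09), Eln (-0.24 ± 0.14), Fbln5 (-0.18 ± 0.10), Efemp1 (-0.10 ± 0.16), Fbln1 (-0.08 ± 0.20) and Efemp2 (-0.03 ± 0.11).

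Postn in WT muscle had the largest of these values (-1.24 ± 0.40). The WT controls measured 15.2, 33.3 and 86.7 CPM as the lowest, median and highest, and the WT NMES libraries 11.5, 12.5 and 20.2 CPM. The control group was spread widely, with a coefficient of variation of 68.3% against 24.9% after NMES, and 4 of the 6 controls lay above every NMES library. In KlHET mice Postn went from 12.3, 24.2 and 67.1 CPM to 9.77, 21.9 and 63.7 CPM (-0.34 ± 0.29). The difference between the genotypes in this response was 0.89 ± 0.49, and of all 13505 genes 0 were called for such an interaction by limma, edgeR or DESeq2, with 475 at an unadjusted p under 0.05 in limma.

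Fbn1 had nearly the same value in each genotype, -0.65 ± 0.30 in WT and -0.68 ± 0.21 in KlHET mice. Of the KlHET NMES libraries 6 of 12 lay below every KlHET control in deposited CPM and 5 of 12 after TMM scaling. Lox measured 4.61, 5.53 and 11.4 CPM in WT controls and 2.72, 3.67 and 4.76 CPM in WT NMES muscle (-0.60 ± 0.24), with 5 of 6 NMES libraries below every control. In KlHET mice Lox had a value of -0.21 ± 0.17. The microfibril-bound Fbln2 had -0.37 ± 0.15 in WT and -0.27 ± 0.11 in KlHET mice. The summed fibroblast markers given above had lower medians after NMES in both genotypes. All 11 fibroblast markers had a value below 0 in each (median log2 difference -0.33 in WT and -0.22 in KlHET mice), and 0 were called. The median sums of the endothelial markers went from 656 to 470 CPM in WT and from 875 to 614 CPM in KlHET mice, with all 10 below 0 in each (median log2 difference -0.34 and -0.25) and 0 called. Of the 10 smooth muscle and pericyte markers 9 lay below 0 in WT (-0.25) and 5 in KlHET mice (-0.06). Over both genotypes 1 was called higher and 1 lower, beside 1.27% and 0.511% of all genes. In KlHET mice 1 was called higher, beside 0.481%. Their sums, led by Des, had medians going from 2303 to 2481 CPM in WT and from 2477 to 2889 CPM in KlHET mice. Of 8 adipocyte markers 7 lay above 0 in each genotype (0.17 and 0.61) and 0 were called. The part of any of these lists in the values was not tested. The WT control and KlHET control groups serve both the stimulation and the genotype comparisons, so the values of Postn or Fbn1 in one are not independent of the other.

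The wider elastic fibre pathway was described with a list of 25 further genes (microfibril-associated proteins, emilins, other lysyl oxidases, latent TGF-beta binding proteins and ADAMTS-like proteins), of which 23 were tested in muscle. In KlHET controls 3 of 23 were higher and 0 lower, beside 2.59% of all genes called higher and 3.41% called lower. They were Ltbp3 (0.28 ± 0.09, limma adjusted p = 0.0480), which holds latent TGF-beta in the matrix, Adamtsl2 (0.89 ± 0.26, limma adjusted p = 0.0383), a fibrillin-binding protein, and Hmcn1 (0.45 ± 0.14, limma adjusted p = 0.0450), hemicentin-1. In KlHET NMES muscle 4 of 23 were higher and 0 lower, beside 9.26% of all genes called higher and 9.87% called lower. Ltbp3 had the smallest p again (0.39 ± 0.09, limma adjusted p = 0.00243), beside the lysyl oxidase relative Loxl4 (0.69 ± 0.24, limma adjusted p = 0.0358), Ltbp1 (0.36 ± 0.13, limma adjusted p = 0.0402) and Atp7a (0.27 ± 0.10, limma adjusted p = 0.0447), the copper transporter that supplies lysyl oxidases. The list's median was 0.23 in controls and 0.26 in NMES mice, against 0.02 for all genes in each. Over both genotypes 1 of the 23 was higher after NMES, Adamtsl5 (0.32 ± 0.08, limma adjusted p = 0.0250), and 1 was lower, Ltbp4 (-0.32 ± 0.09, limma adjusted p = 0.0497), a latent TGF-beta binding protein needed for elastic fibre assembly. Of all genes 1.27% were called higher and 0.511% lower in this comparison.

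Of 15 genes on the TGF-beta and periostin side, 1 was higher in KlHET controls, the signal carrier Smad3 (0.31 ± 0.10, limma adjusted p = 0.0480), and 5 were higher in KlHET NMES muscle. These were the integrin subunits Itgb5 (0.39 ± 0.11) and Itgb3 (0.58 ± 0.17), fibronectin Fn1 (0.82 ± 0.25), the ligand Tgfb3 (0.28 ± 0.10) and the receptor Tgfbr2 (0.34 ± 0.12), with limma adjusted p from 0.0101 for Itgb5 to 0.0372 for Tgfbr2. None of the 15 was lower. The share of all genes called higher was 2.59% between control genotypes and 9.26% between NMES genotypes. Of 10 tested elastin-degrading enzymes and inhibitors, which include Mmp2, Ctsk and Timp3, 0 were called in either genotype comparison, with list medians of -0.05 in controls and 0.26 in NMES mice.

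Within groups, the genes varied together across muscle libraries in most pairs. Of 36 pairs 35 had a correlation above 0 after the group means were removed, with a median of 0.39 over the 36 libraries, which share depth, scaling and tissue sampling. Fbln1 and Lox were the most alike pair (0.78). Eln stood apart from the others, with correlations from -0.07 to 0.27. The summed fibroblast markers followed Fbn1 closely (0.87) and Eln weakly (0.15), with Efemp1 at 0.71, Fbln1 at 0.69, Lox at 0.66, Fbln5 at 0.60, Efemp2 and Fbln2 at 0.52 and 0.51, and Postn at 0.45. Macrophage markers had values of the same order, 0.79 with Efemp1, 0.74 with Fbln1, 0.70 with Fbn1, 0.65 with Lox and 0.61 with Efemp2, and endothelial markers had 0.68 with Fbln2. Eln, in turn, had its highest list value with the other elastic fibre genes (0.68), a sum led by Ltbp4, Ltbp3 and Adamtsl5. With muscle fibre markers Eln had -0.50. Lox had 0.79 with the TGF-beta and periostin list and 0.67 with tenocyte markers, and Postn had 0.55 and 0.58.

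The genes most like Fbn1 among 13225 ranked in muscle were Col6a2 (0.90), Col6a1 (0.88), Itih5 (0.86), Mmp2 (0.85) and Smoc2 (0.85). The nearest to Postn were other genes, Col11a1 (0.86), Col12a1 (0.85), Tnn (0.84), Lrrc15 (0.82) and Ptn (0.77). Eln was most like Hip1r (0.76), Sema4c (0.72) and Pdlim4 (0.70), Fbln5 most like Tax1bp3 (0.77), and Efemp1 most like Gfpt2 (0.86), Serping1 (0.85) and Dpt (0.85). Single libraries led many genes at once. KlHET NMES replicate 1 had the highest value of its group for 5 of the 9 genes (Fbn1, Fbln1, Fbln5, Efemp1 and Lox) and the highest fibroblast marker sum, 3295 CPM. KlHET NMES replicate 2 was lowest for 4 (Fbn1, Fbln1, Fbln2 and Lox) with the lowest sum, 925 CPM. In WT NMES muscle, replicate 5 was lowest for 5 genes and had the lowest sum, 938 CPM.

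**Figure D4:**
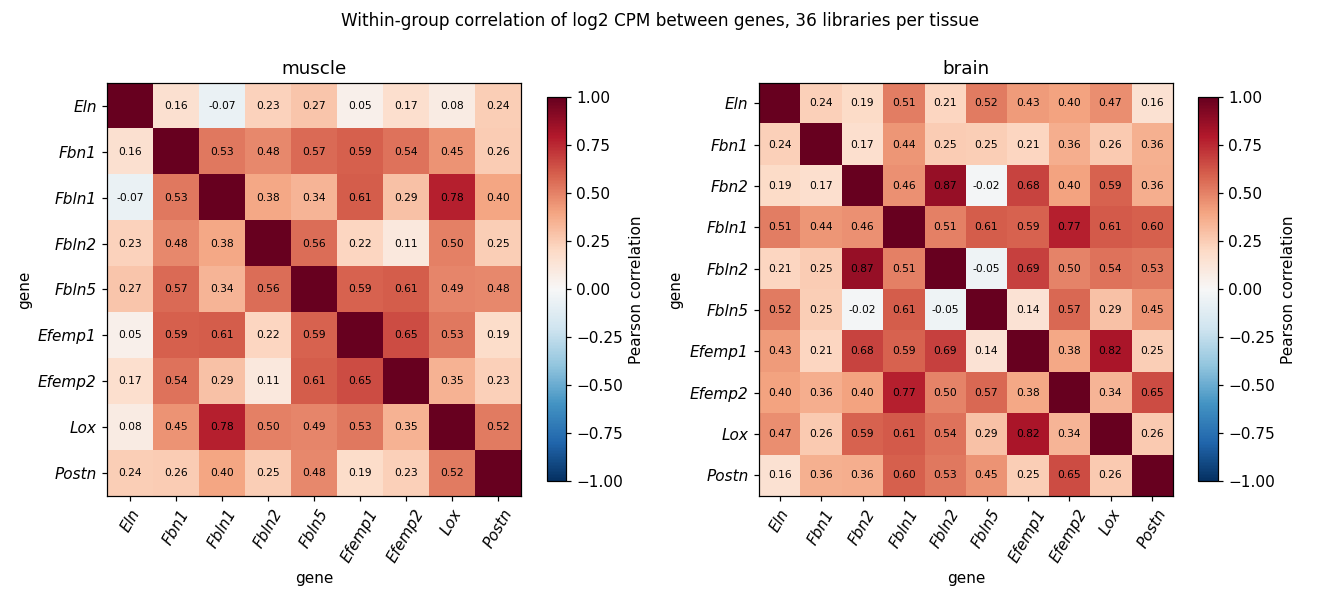
Pearson correlation of log2 CPM between each pair of genes after the group means were removed, over 36 libraries of muscle (left, 9 genes) and 36 of brain (right, 10 genes), coloured from -1 (blue) to 1 (red). The muscle row of Eln is pale, from -0.07 to 0.27, and the brain panel holds the strongest pair, Fbln2 and Fbn2 at 0.87.

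In brain, none of the 10 genes was called in any of the 6 comparisons. The share of all 15400 genes called was 0% for NMES over both genotypes, 0% in WT, 0% in KlHET and 0% for the interaction, 0.0714% between control genotypes and 0.0974% between NMES genotypes. At an unadjusted p under 0.05 limma had 307, 421, 314, 454, 1609 and 657 genes in these comparisons. Between genotypes, the largest difference was that of Postn in controls and that of Fbn1 in NMES mice. Postn measured 1.26, 2.64 and 3.27 CPM in WT controls and 2.33, 3.13 and 6.30 CPM in KlHET controls, with 5 of 12 KlHET controls above every WT control (0.42 ± 0.18, limma adjusted p = 0.435). Fbn1 measured 6.29, 6.93 and 7.16 CPM in WT NMES brain and 3.52, 5.17 and 7.96 CPM in KlHET NMES brain, where 9 of 12 lay below every WT library (-0.34 ± 0.15, limma adjusted p = 1.0).

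The WT NMES values of Fbn1 in brain were tight, with a coefficient of variation of 5.04%, against 23.9% in WT controls (3.52, 5.64 and 7.38 CPM) and 25.2% in KlHET NMES brain. The response of Fbn1 to NMES differed between genotypes by -0.51 ± 0.21, which did not pass (limma adjusted p = 0.999). In KlHET mice all 10 genes had a value below 0 after NMES, with a median of -0.14 against 0.00 for all genes, and the lowest were Fbln2 (-0.37 ± 0.26), Lox (-0.26 ± 0.18) and Fbn1 (-0.24 ± 0.12). In WT mice 6 of 10 lay below 0, with a median of -0.03, and Postn had the largest value (0.40 ± 0.21). Eln differed by -0.12 ± 0.14 in KlHET mice, with an interval from -0.42 to 0.17, and by -0.03 ± 0.20 in WT mice.

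**Figure D5:**
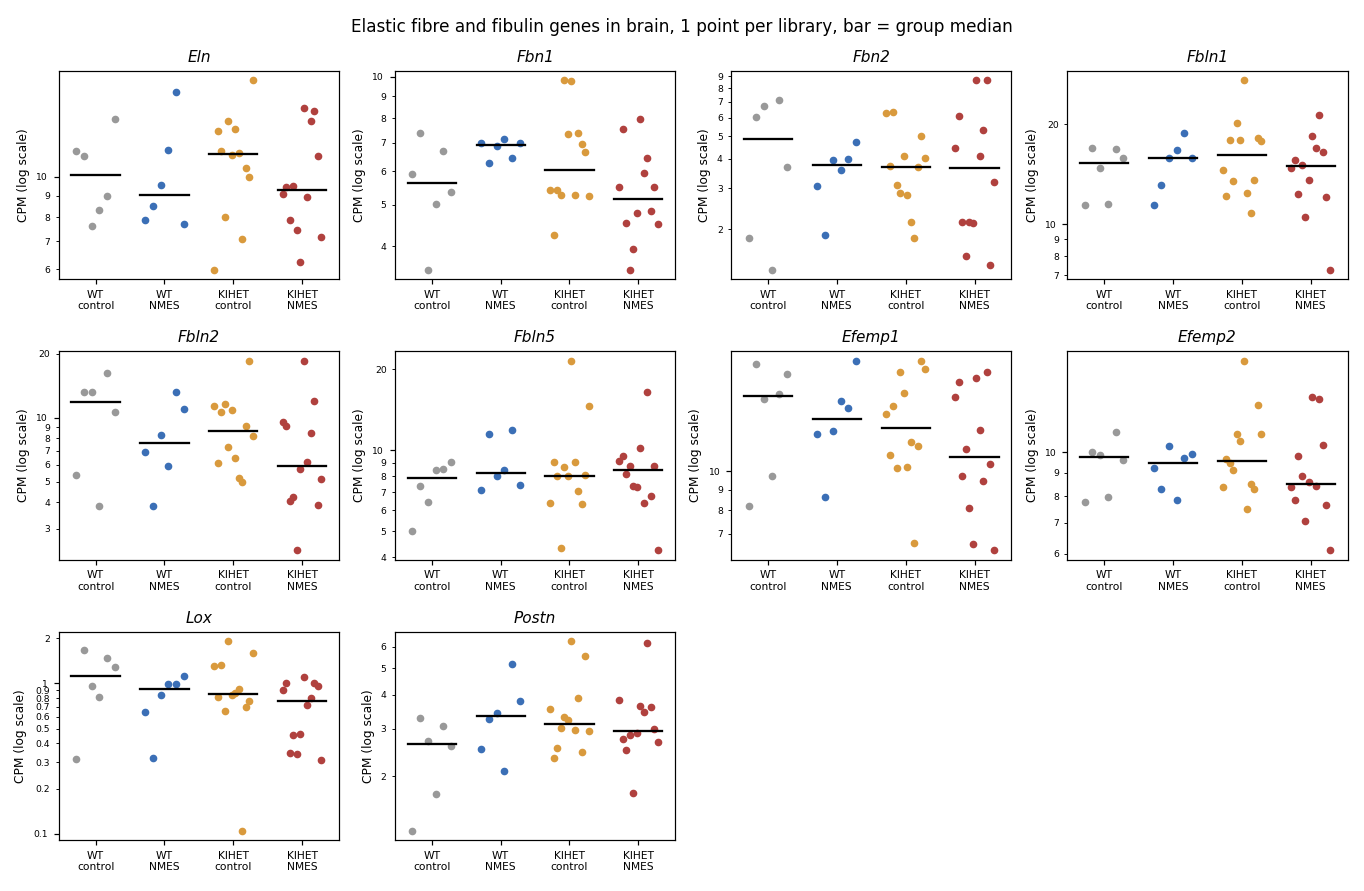
CPM of 10 genes in brain on a log axis, 1 point per library (6 per WT group, 12 per KlHET group) with a bar at the group median. The groups overlap for every gene, the 6 WT NMES values of Fbn1 lie between 6.29 and 7.16 CPM, and Lox is the lowest gene, at 0.105 to 1.91 CPM.

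Depth limited the low genes of brain. Lox rested on 2 to 38 reads per library and ran from 0.105 to 1.91 CPM, and Postn on 28 to 139 reads. Eln, at 5.99 to 17.1 CPM, rested on 105 to 407 reads. The sums of the meningeal and perivascular fibroblast markers overlapped between all groups. Their 12 genes summed to a median of 258 CPM (176 to 311) in WT controls, 257 CPM (190 to 314) in WT NMES, 240 CPM (182 to 380) in KlHET control and 221 CPM (136 to 293) in KlHET NMES brain, and none was called in any comparison. After NMES in KlHET mice all 12 had a value below 0 (median log2 difference -0.24), as they had between NMES genotypes (-0.29). In WT mice 6 of the 12 lay below 0 after NMES (0.00), and between control genotypes 7 of the 12 did (-0.02). Choroid plexus markers ran from 5.44 to 1977 CPM across libraries. The part of either in the values above was not tested.

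Within groups, 43 of 45 pairs of the genes had a correlation above 0 in brain, with a median of 0.43 over 36 libraries, which share depth and the piece of tissue taken. The strongest pair was Fbln2 with the second fibrillin, Fbn2 (0.87), and Efemp1 with Lox had 0.82. The summed meningeal markers followed Fbln1 (0.81), Efemp1 (0.80) and Lox (0.77) most, and Fbn2 (0.43) and Postn (0.35) least. Among 15202 genes, those most like Efemp1 were Slc13a3 (0.94), Mrc2 (0.93), Ogn (0.93) and Fmod (0.92). Fbln5 was most like Fchsd2 and Sema6d (0.85 each), Postn most like Nxph1 (0.78) and Eln most like Itih5 (0.70). KlHET control replicate 7 had the highest value of its group for Fbln1, Fbln5, Efemp2 and Postn, and the highest choroid plexus sum, 1977 CPM. KlHET NMES replicate 12 had the lowest value for 5 genes and the lowest meningeal sum, 136 CPM.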

How the data were processed

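Total RNA libraries of muscle and brain were sequenced with paired reads of 150 bases. The authors used Rsubread for alignment to mm10, org.Mm.eg.db for gene names and edgeR 4.0.16 for the counts, and deposited 1 table of CPM per tissue. The tables also hold an average log2 CPM of the authors, which was not used. All 72 libraries matched 1 column each.

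Every CPM value was a whole multiple of the worth of 1 read (100% within a tolerance of 1e-06), so whole reads and depth were recovered. Differences were tested in R 4.3.3 with limma 3.58.1, on log2 of TMM-scaled CPM plus 0.5, with trend, robust variances and 1 model of 4 group means over the 36 libraries of a tissue, 2-sided, and adjusted over all genes tested. This scale understates changes of genes at low CPM. Alternatives were RLE and total-count scaling, no filter, pseudocounts of 0.1 and 2, edgeR's quasi-likelihood test and DESeq2 1.42.0 on recovered reads (185 genes higher and 68 lower, and 329 and 142, for NMES over both genotypes in muscle), only the compared groups, a covariate for the higher of Xist and Y-linked genes, and each library left out. The limma step was also run on simulated data, and how often it recovered a change is not given here. Xist exceeded the summed Y-linked genes in 3 of 6 libraries of each WT group in both tissues. It did so in 7 of 12 KlHET control and 8 of 12 KlHET NMES libraries, and the main model held no term for this. Within-group correlations used log2 CPM minus group means. Promoters are from RefSeq (GRCm38.p6), where 7 of the 10 genes were matched and Eln, Fbn2 and Lox were not. Figures were drawn with matplotlib 3.10.9 under Python 3.11.15.

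The genes, lists and tests were chosen with earlier results of these data known. Named were all 10 genes and Kl, up to 4 called genes of each list per comparison and direction by smallest p, and the 5 genes most correlated with Fbn1, Eln, Fbln5, Postn and Efemp1, of which the text gives the leading ones. The 5 called genes of the TGF-beta list are all given, which is 1 past that rule. The called muscle fibre markers, and the smooth muscle and pericyte markers called after NMES, are given as counts only. For NMES over both genotypes 1 of 8 muscle fibre markers was called higher and 0 lower, beside 1.27% and 0.511% of all genes.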

Additional observations from a re-analysis of the deposited data

How the results depend on the processing

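Over the 114 differences of the members, 5092 values were computed under other settings, of which 5030 kept their side of the threshold, 42 lost their call, 20 gained one (all for NMES over both genotypes in muscle) and 0 reversed a call. Of those not called, 141 changed sign. For NMES over both genotypes in muscle, 0 of 9 members were called, 2 with total-count scaling (Fbn1 and Fbln2), 3 with DESeq2 (Fbn1, Fbln2 and Postn), 1 with a pseudocount of 0.1 and 1 with the covariate for Xist or Y-linked genes (Fbn1 in both), and 0 to 2 when 1 library was left out. Between control genotypes 3 were called, and 0 to 3 when 1 library was left out. Between NMES genotypes 6 were called, 5 with a pseudocount of 2 and 4 with only the compared groups. Total-count scaling turned the calls between control genotypes over all genes from 350 higher and 460 lower to 751 and 102, and those between NMES genotypes from 1251 and 1333 to 2636 and 307, with a median shift of 0.14 against 0.02, while the same members stayed called. The calls over all genes between NMES genotypes were 753 higher and 752 lower with only the compared groups, and those between control genotypes 575 and 742. For NMES over both genotypes, 171 genes were called higher and 69 lower, 50 and 136 with total-count scaling and 329 and 142 with DESeq2. In KlHET mice 65 and 22 were called after NMES, 17 and 19 with total-count scaling, 205 and 43 with DESeq2, 109 and 39 with the covariate and 22 and 9 with only the compared groups. In WT mice 2 and 0 were called, 13 and 3 with DESeq2 and 7 and 1 with the covariate. In brain 0 members were called under any setting. Over all brain genes 8 higher and 3 lower were called between control genotypes, 37 and 19 with DESeq2 and 2 and 1 with only the compared groups, and between NMES genotypes 9 and 6, 21 and 11, and 2 and 1. No paired analysis was possible because the groups compared share no animals or replicate numbers that pair them.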
